A study of Mus musculus with 2 samples.

Results

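Imprinted genes, which are expressed mainly from the copy inherited from 1 parent, were examined in the pleuroperitoneal folds (PPFs) of mouse embryos, the paired folds that give rise to connective tissue of the diaphragm. The 51 genes were taken from a list of known mouse imprinted genes and found by symbol, and 49 of them had a row among the 38926 features listed in both libraries. Kcnq1ot1 and Peg13 had no row under those symbols and were not analysed here as genes. The series holds a single group of 2 libraries, called replicates 2 and 1 here as in the labels. All embryos were wild type, at embryonic day 12.5, and of a mixed background that the labels write as 129s/SvlmJ-C57/BL6J. Each library pooled 2 pairs of folds that were dissected by hand after the heart and lungs had been taken out, and polyadenylated RNA was sequenced with a stranded kit. The litters behind each pool are not stated, so differences between the libraries measure the spread between these samples, which may be technical. The series sets out to rank genes implicated in human congenital diaphragmatic hernia by their level at this stage; the imprinted genes were described here within the same data.

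Most imprinted genes lie in clusters. In each cluster a control region carries DNA methylation from either the egg or the sperm, and this mark sets which parental copy is transcribed. Many of the genes act on fetal growth: several paternally expressed genes such as Igf2 promote it, and several maternally expressed genes such as Cdkn1c, Igf2r and Grb10 restrain it. The deposited values hold 1 number per gene and library with no allele information, so the parental allele named below is textbook knowledge of mouse and not a measurement. For some genes it holds in only some tissues, such as placenta or brain.

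Replicate 2 held 23255957 counts in all and replicate 1 held 26370253. Levels are given as TPM, the count divided by gene length and brought to the same sum in each library, so genes can be compared with each other. A mean is followed by its SD with n = 2. All 8 markers of the folds, led by Gata4 (178 and 173 TPM in replicates 2 and 1) and Osr1 (136 and 124 TPM), reached 10 TPM in both libraries. They summed to 700 and 657 TPM. Muscle markers were higher: the 8 on the myogenic list summed to 2097 TPM in replicate 2 and 2062 TPM in replicate 1. Myog (649 and 648 TPM) and Myh3 (561 and 522 TPM) led that list. The part of muscle cells in the levels of the imprinted genes was not tested. Liver and neuronal markers differed between the libraries. The summed level of 10 hepatoblast markers was 333 TPM in replicate 2 and 136 TPM in replicate 1, with Afp at 150 and 58.5 TPM. The summed level of 10 neuronal markers was 74.0 and 40.9 TPM, and Mnx1, a motor neuron gene, had 0 counts in both. Erythroid markers summed to 5212 and 5544 TPM, and endothelial markers to 237 and 203 TPM. Because each library is bulk tissue, fewer cells of a type and less RNA per cell cannot be told apart.

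Imprinted transcripts also carry small RNAs, and the sequences of those on the 3 hosts that the levels below turn on are shown here. H19 holds the hairpin of miR-675 inside its exons, Mir483 lies within Igf2, and Mirg is the host of a cluster at the Dlk1-Dio3 locus, from which miR-410 is shown because its hairpin had the most counts there. Mature sequences are from RefSeq (GRCm38.p6), written 5′ to 3′, with the seed (bases 2 to 8) in capitals.
mmu-miR-675-5p: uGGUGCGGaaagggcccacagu
mmu-miR-675-3p: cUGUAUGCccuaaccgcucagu
mmu-miR-483-5p: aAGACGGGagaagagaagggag
mmu-miR-483-3p: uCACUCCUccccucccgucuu
mmu-miR-410-5p: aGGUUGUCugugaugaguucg
mmu-miR-410-3p: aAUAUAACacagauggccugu
None of these 6 seeds was shared. The Mir675 hairpin (chromosome 7, 142577064 to 142577147) held 12213 counts in replicate 2 and 14039 in replicate 1. Mir483 held 45 and 35 counts, and Mir410 held 51 and 52. These are reads of polyadenylated RNA that covered the hairpin bases, so they do not measure the mature microRNA. The 13 features named as microRNAs inside Mirg held 134 and 163 counts in all.

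As a group these 49 imprinted genes, a list chosen with earlier results of these data known, were abundant in the folds. Of the 49 genes, 46 (93.9%) reached 1 TPM in both libraries, 37 reached 10 TPM and 17 reached 100 TPM. Among all 20719 protein-coding genes, 13053 (63.0%) reached 1 TPM in both libraries and 1640 (7.92%) reached 100 TPM. The median level of the imprinted genes was 51.7 ± 0.585 TPM, and that of the protein-coding genes 7.35 ± 0.162 TPM. Among genes at 1 TPM or more in both libraries, these medians were 52.4 and 26.9 TPM. The 39 further imprinted genes described below had a lower median of 12.6 ± 0.367 TPM, and 5 of them reached 100 TPM in both libraries. Together the 49 genes held 3.73% of the counts in replicate 2 and 3.65% in replicate 1. H19 alone gave 45.2% and 46.5% of their summed TPM. The 5 highest members, H19, Igf2, Cdkn1c, Mest and Grb10, gave 76.6% and 77.9%. Of the 48 neighbouring pairs in order of mean level, the ranges over the libraries overlapped in 21.

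**Figure D1:**
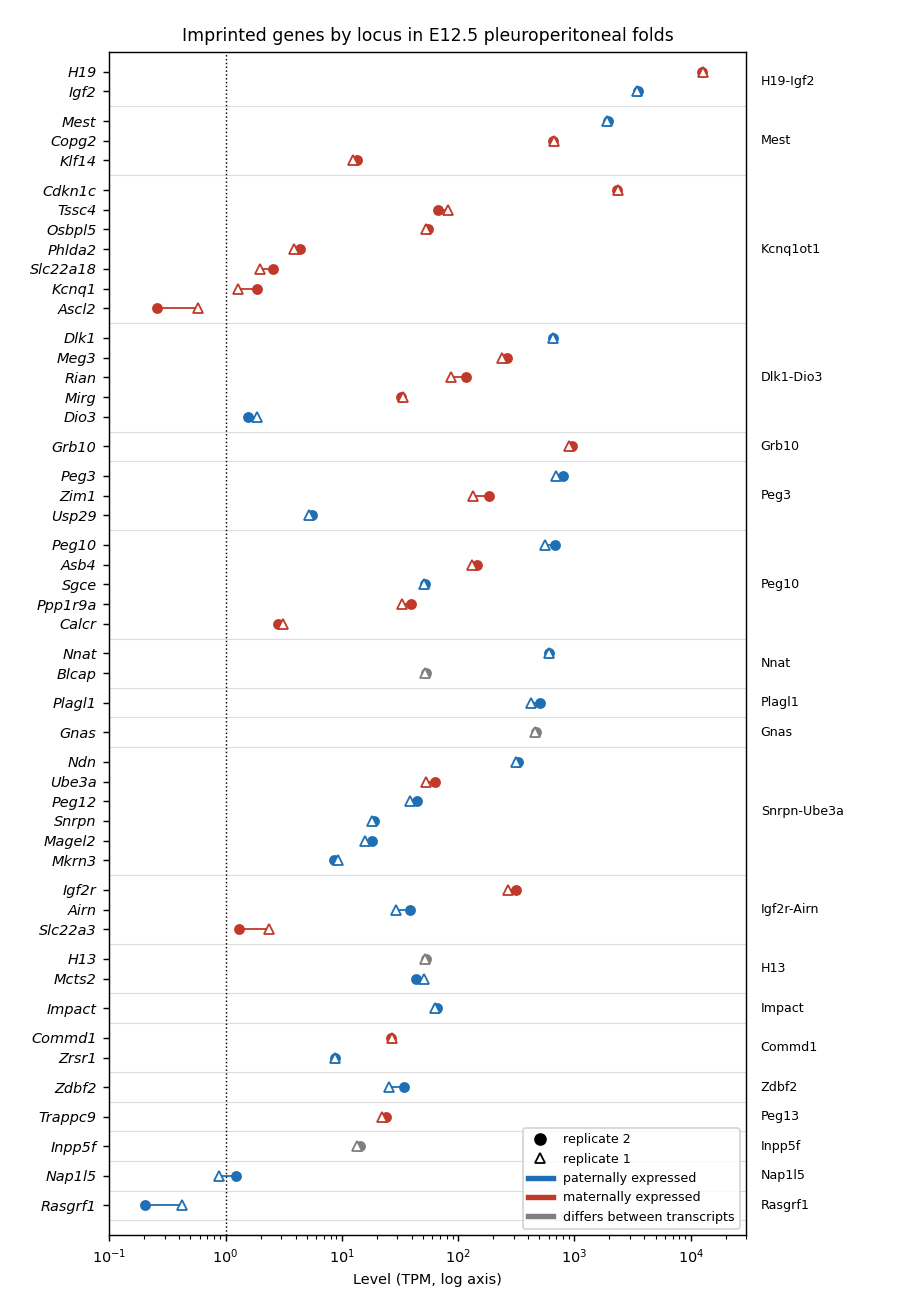
Level of each of the 49 imprinted genes in TPM on a log axis, grouped by locus (named at the right, from the highest to the lowest summed level). Filled circles are replicate 2 and open triangles replicate 1, colours give the allele known to be expressed, and the dotted line marks 1 TPM. H19 lies highest, at 12556 and 12688 TPM, while Ascl2 and Rasgrf1 lie below 1 TPM in both libraries.

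The 5 highest members are all genes known to act on growth. H19 (chromosome 7, 142575529 to 142578143), a maternally expressed noncoding RNA that restrains growth in mouse, had 12556 TPM in replicate 2 and 12688 TPM in replicate 1, the highest level among all 33049 features of 200 bases or longer. Igf2, the paternally expressed insulin-like growth factor gene beside it (chromosome 7, 142650766 to 142657496), had 3493 and 3426 TPM. H19 stood 3.65 ± 0.0767 times above Igf2. Igf2 shares 62.8% of its exon bases with Gm49394, annotated on the same strand, and reads of the pair cannot be told apart there.

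Cdkn1c, which encodes the cell cycle inhibitor p57 (chromosome 7, 143458350 to 143461050), had 2316 TPM in replicate 2 and 2353 TPM in replicate 1, and shares 625 exon bases with Gm44732 on the opposite strand. Grb10, an adaptor that dampens insulin and Igf receptor signalling (chromosome 11, 11930508 to 12037401), had 951 and 898 TPM. Igf2r, the receptor that takes Igf2 to lysosomes for degradation (chromosome 17, 12682406 to 12769664), had 314 and 271 TPM, so the ligand gene stood 11.9 ± 1.07 times above it. All 3 are maternally expressed restrainers of growth, and each exceeded 200 TPM in both libraries. Phlda2, a maternally expressed restrainer of placental growth, was far lower at 4.36 and 3.89 TPM, from 24 and 25 counts. With H19, these 5 growth-restraining genes summed to 16141 and 16213 TPM. Most of that sum came from H19, at 12556 and 12688 TPM.

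The other paternally expressed growth genes were also high. Mest had 1957 TPM in replicate 2 and 1892 TPM in replicate 1. Dlk1, a membrane protein related to Notch ligands that marks progenitors (chromosome 12), had 649 and 657 TPM. Peg10, a gene derived from a retrotransposon and needed in mouse for placental development, had 687 and 562 TPM. Peg3, a zinc finger gene, had 802 and 701 TPM, and Plagl1, a zinc finger factor known to act on other imprinted genes in mouse, had 504 and 426 TPM. Igf2, Mest, Dlk1 and Peg10, the 4 members grouped as growth-promoting, summed to 6786 TPM in replicate 2 and 6536 TPM in replicate 1. Each exceeded 100 TPM in both libraries. Peg3 and Plagl1 were grouped as transcription factors and are not in that sum.

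Grouped by allele, the 22 paternally expressed genes with a row had a median of 44.1 ± 0.523 TPM and the 23 maternally expressed genes 54.1 ± 1.73 TPM. Paternally expressed genes summed to 9362 TPM in replicate 2 and 8897 TPM in replicate 1. Maternally expressed genes other than H19 summed to 5283 and 5109 TPM. With H19 included, the maternally expressed genes gave 64.2% and 65.3% of the summed TPM of all 49. Without H19 they gave 34.9% as a mean of the libraries, so the maternal excess in the sum rested on that gene. That share keeps Igf2 on the paternal side. Without Igf2, the other 21 paternally expressed genes summed to 5869 TPM in replicate 2 and 5471 TPM in replicate 1. The remaining 4 genes, Gnas, H13, Blcap and Inpp5f, use different alleles for different transcripts.

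**Figure D2:**
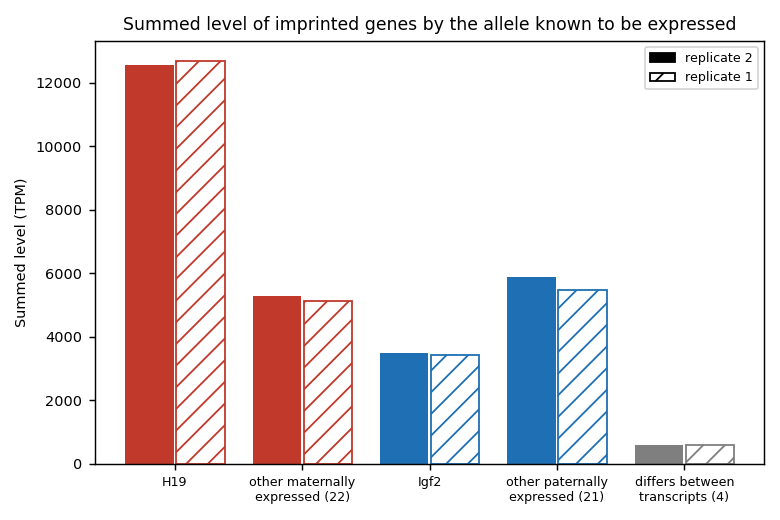
Summed level in TPM of imprinted genes by the allele known to be expressed, with H19 and Igf2 shown apart. Filled bars are replicate 2 and hatched bars replicate 1. The H19 bars, at 12556 and 12688 TPM, exceed the bars of the 22 other maternally expressed genes, at 5283 and 5109 TPM.

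Within the loci, neighbours differed widely in level. In the Kcnq1ot1 domain, where a paternally expressed noncoding RNA silences maternally expressed genes in cis, Cdkn1c stood 568 ± 52.0 times above Phlda2 and 1538 ± 416 times above the potassium channel gene Kcnq1. Kcnq1 had 41 counts in replicate 2 and 33 in replicate 1, or 1.86 and 1.28 TPM. The transporter gene Slc22a18 had 2.56 and 1.99 TPM, and Ascl2, a trophoblast regulator, had 3 and 8 counts (0.256 and 0.585 TPM). Tssc4 (67.5 and 81.6 TPM) and Osbpl5, an oxysterol-binding protein gene (55.3 and 52.8 TPM), lay between these extremes. Tssc4 shares 220 exon bases with Trpm5 on the opposite strand. Inside the annotated span of Kcnq1ot1, 4 short features held 16 counts in replicate 2 and 7 in replicate 1. The rest of that transcript was not analysed here.

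Phlda2, Ascl2 and Slc22a3, a cation transporter gene, are best known in placenta and were low, and so were markers of trophoblast. Tpbpa, Prl3d1 and Synb were without a count in either library. At a floor of 3 counts this allows 0.301, 0.486 and 0.102 TPM in replicate 2 and 0.258, 0.416 and 0.0872 TPM in replicate 1. The whole list of 7 trophoblast markers summed to 2.17 TPM in replicate 2 and 0.834 TPM in replicate 1, led by Hand1 (1.58 and 0.177 TPM), which other mesoderm also uses, and Syna (0.519 and 0.485 TPM). Slc22a3 had 33 counts in replicate 2 and 70 in replicate 1. Peg10, which also acts in placenta, was high in the folds.

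At the Dlk1-Dio3 locus the paternally expressed Dlk1 stood 2.61 ± 0.205 times above the maternally expressed noncoding RNA Meg3, which had 263 TPM in replicate 2 and 238 TPM in replicate 1. Rian, the host of a snoRNA cluster, had 118 and 87.4 TPM, and Mirg had 32.0 and 33.3 TPM. Rian stood 3.69 times above Mirg in replicate 2 and 2.62 times in replicate 1, and that difference was not tested. The listed length of Rian is 28762 bases, against 18234 exon bases in GENCODE M21, so its TPM rests on the longer length. Dio3, which encodes an enzyme that inactivates thyroid hormone, had 23 and 32 counts (1.56 and 1.86 TPM). Dlk1 stood 385 ± 44.4 times above it, and both are paternally expressed. Meg3 bases shared with the opposite-strand gene Gm26906 make up 6.79% of its exon bases, and the count listed for Gm26906 equalled 18.6% of the Meg3 count in replicate 2 and 19.5% in replicate 1, and the strand these reads came from cannot be told apart.

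The Peg3 domain held Peg3 and Zim1, a zinc finger gene expressed from the maternal copy (184 TPM in replicate 2 and 133 TPM in replicate 1). Usp29, a paternally expressed gene that is transcribed away from Peg3, had 5.53 and 5.19 TPM, 140 ± 6.97 times below Peg3. The Usp29 row covers 2610 bases, against 18078 exon bases in GENCODE M21, so its level refers to that part alone. Zim1 is likewise listed at 3641 bases, against 8086 exon bases. Near Peg10, the epsilon-sarcoglycan gene Sgce had 52.2 and 51.3 TPM, so Peg10 stood 12.1 ± 1.57 times above a paternally expressed neighbour. Sgce is listed at 3086 bases, against 10612 exon bases in GENCODE M21, and that ratio rests on the listed length. The maternally expressed Asb4 had 145 and 132 TPM, Ppp1r9a (neurabin) 39.7 and 32.7 TPM, and the calcitonin receptor gene Calcr 2.81 and 3.13 TPM.

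Genes of the Snrpn-Ube3a domain, whose human counterparts are linked to Prader-Willi and Angelman syndromes, were led by Ndn. Ndn, which encodes the MAGE family protein necdin, had 328 TPM in replicate 2 and 312 TPM in replicate 1. It stood 18.8 ± 1.28 times above its relative Magel2 (18.3 and 15.9 TPM). Ndn is listed at 1652 bases, against 3694 exon bases in GENCODE M21, and that ratio rests on the listed length. Snrpn, a splicing protein gene, had 18.9 and 18.3 TPM, Peg12 44.1 and 38.3 TPM and Mkrn3 8.59 and 9.35 TPM. Other annotated genes, among them Gm38393 and Snurf on the same strand, cover 34.1% of the Snrpn exon bases, and reads there cannot be told apart. Ube3a, a ubiquitin ligase gene that is imprinted in neurons, had 62.8 and 53.3 TPM. The listed length of Ube3a is 5097 bases, against 20626 exon bases in GENCODE M21, of which 27.3% are shared with other annotated genes. Nnat, a paternally expressed membrane protein gene best known from neurons, had 600.3 and 602.7 TPM. The neuronal markers summed to 74.0 and 40.9 TPM in the same libraries, and their part in this level was not tested.

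Overlapping neighbours limit several levels, because it is not stated whether counting used strand. Mest and Copg2, a coatomer subunit gene, share 912 exon bases on opposite strands. These are 17.8% of the exon bases of Copg2 and 23.1% of those of Mest. Copg2 had 659 and 669 TPM in replicates 2 and 1, and the part that Mest reads have in this level was not tested. The part that Copg2 reads have in the Mest level was not tested either. Gnas, the gene of the stimulatory G protein alpha subunit, had 468 and 462 TPM over its 11186 bases. Gm20721, which shares 1469 bases with it on the opposite strand, had 3360 and 3335 TPM, and its count equalled 95.2% and 95.7% of the Gnas count. These shared bases are 13.1% of the Gnas exon bases, and how many of the reads there belong to Gnas cannot be told apart. Gm20721 is listed at 1484 bases, so a count near that of Gnas gives it a higher TPM. The place of Gnas among the members, below the 5 highest, therefore rests on its listed 11186 bases.

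Among the members, Mcts2, Zrsr1 and Nap1l5 are retrogenes that lie inside another gene. The retrogene Mcts2 had 43.4 and 50.7 TPM, and its host H13, a signal peptide peptidase gene, had 52.7 and 52.4 TPM. Zrsr1, a splicing factor retrogene, had 8.70 and 8.66 TPM, and its host Commd1 had 26.4 and 27.0 TPM, with 412 exon bases shared. Nap1l5, a nucleosome assembly family gene, had 17 and 14 counts, so it reached 1 TPM in replicate 2 (1.24 TPM) and not in replicate 1 (0.872 TPM). Rasgrf1, a Ras exchange factor gene imprinted in mouse brain, had 7 and 17 counts (0.204 and 0.424 TPM). Airn, the paternally expressed RNA that silences Igf2r, had 38.5 and 29.0 TPM, with Igf2r 8.75 ± 0.854 times above it. The Airn row covers 3583 bases, the exons of the spliced form, and not the whole transcribed span.

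The other members were at intermediate levels. Impact, a regulator of translation, had 66.0 and 63.0 TPM, Blcap 52.5 and 51.9 TPM, Zdbf2 34.0 and 25.5 TPM, Trappc9 23.8 and 22.1 TPM, Inpp5f 14.4 and 13.5 TPM and Klf14 13.6 and 12.4 TPM. Of 39 further imprinted genes with a row, 31 reached 1 TPM and 5 reached 100 TPM in both libraries, with a median of 12.6 ± 0.367 TPM. The highest was Dcn, a proteoglycan gene imprinted in mouse placenta, at 562 and 539 TPM, followed by Cd81, Nap1l4 and Slc38a4. Of 20 genes for factors that act on the methylation marks or at imprinted loci, not all of which keep the marks, 17 reached 10 TPM in both libraries. They were led by Trim28, the corepressor that KRAB zinc finger proteins recruit (577 and 598 TPM), and the maintenance methyltransferase gene Dnmt1 (179 and 179 TPM). Of 8 genes for Igf receptors, Igf1 and proteins that bind Igf RNAs, all reached 1 TPM in both libraries, led by Igf1 (231 and 216 TPM) and Igf2bp3 (159 and 155 TPM).

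Promoter sequence was read for 42 of the 51 genes from RefSeq (GRCm38.p6), in the 250 bases before each listed start. The hexamer TGCCGC was searched on both strands (as GCGGCA on the other). It is the motif that the zinc finger protein ZFP57 binds when its CpG is methylated, which protects imprints. It was found before 10 of the 42 genes (5 of 20 paternally and 5 of 18 maternally expressed), and in 9.84% of all 27025 genes with a window. The hexamer holds a CpG, and the median of the highest CpG count per gene was 14 for these members and 6 for all genes. Members also had more windows, 62 for 42 genes, against 32851 for 27025. The part of either in the count was not tested. Genes with 2 or more copies in a window were Mest and Zdbf2, which are both paternally expressed, against 1.02% of all genes. Their windows are printed because these 2 genes stood far apart in level, 1957 and 34.0 TPM in replicate 2, while sharing this feature. Capitals mark the hexamer on either strand.
Mest, chr6:30737800-30738049, plus strand: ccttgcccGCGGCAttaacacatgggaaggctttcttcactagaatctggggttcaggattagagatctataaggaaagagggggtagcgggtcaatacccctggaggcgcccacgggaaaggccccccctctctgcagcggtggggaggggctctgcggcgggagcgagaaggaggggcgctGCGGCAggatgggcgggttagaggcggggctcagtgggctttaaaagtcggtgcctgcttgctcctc
Zdbf2, chr1:63200108-63200357, plus strand: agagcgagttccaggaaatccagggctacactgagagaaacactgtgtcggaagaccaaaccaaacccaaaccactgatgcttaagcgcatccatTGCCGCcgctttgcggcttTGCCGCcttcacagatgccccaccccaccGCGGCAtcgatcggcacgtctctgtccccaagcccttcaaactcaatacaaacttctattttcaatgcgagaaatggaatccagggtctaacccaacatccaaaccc
The Mest window held 2 copies and the Zdbf2 window 3, with 14 and 13 CpGs. The Zdbf2 window lies at an upstream start, and the window at its other start held 0 copies and 26 CpGs. Another window of Mest, at chr6:30733256-30733505, held 0 copies and 7 CpGs. A match is a description of these letters and not evidence of binding.

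The libraries were then compared gene by gene. Each of 19433 genes was given a two-sided exact binomial test on its counts, with Benjamini-Hochberg adjustment. This test compares these 2 libraries, not conditions, and covers counting error only, because each side is 1 library. Ratios are replicate 2 over replicate 1, scaled by TMM. At an adjusted p under 0.05, 13 of the 49 imprinted genes were higher in replicate 2, against 8.85% of all tested genes. Lower in replicate 2 were 6, against 8.65%. The test called ratios as small as 0.04 on the log2 scale for members with many counts. Past 1.5-fold in either direction were 3 of 49, Slc22a3, Ascl2 and Rasgrf1, against 11.2% of tested genes, and each of these had fewer counts than 200 over both libraries. Slc22a3 was the 1 member both called and past 1.5-fold, against 2.35% of tested genes. Of the 40 members with at least 200 counts over both libraries, 0 were past 1.5-fold, against 1.33% of genes with that many counts. The median log2 ratio was 0.03 for the members and -0.01 for all tested genes.

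**Figure D3:**
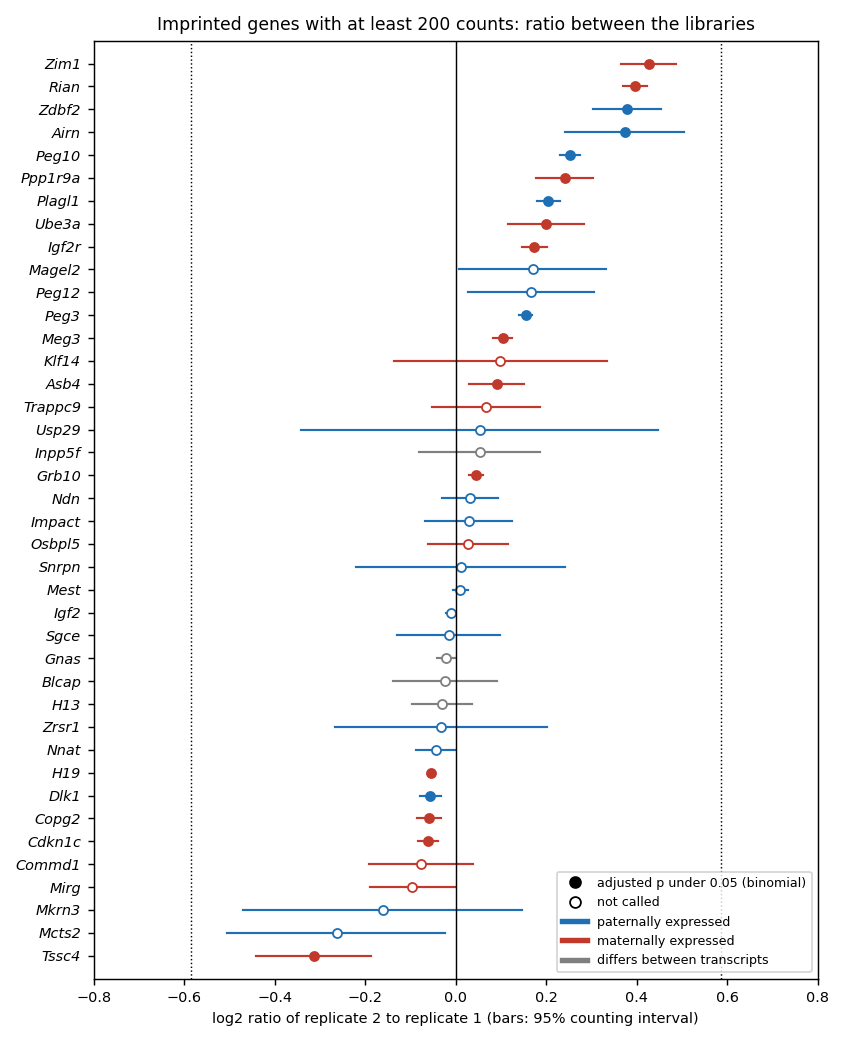
Ratio of replicate 2 to replicate 1 on the log2 scale for the 40 imprinted genes with at least 200 counts, with 95% counting intervals, coloured by the allele known to be expressed. Filled points passed an adjusted p under 0.05 in the binomial test and dotted lines mark 1.5-fold. Zim1, Rian, Zdbf2 and Airn lie farthest to the right, at 0.37 to 0.43, and Tssc4 farthest to the left, at -0.31.

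The members called higher were spread over several loci. Zim1 had 4858 counts in replicate 2 and 4108 in replicate 1. Its log2 ratio was 0.43, with a counting interval of 0.37 to 0.49 (adjusted p = 1.12e-41, exact binomial test). Rian had 24687 and 21328 counts and a ratio of 0.40 (0.37 to 0.42), Zdbf2 3129 and 2736 counts and a ratio of 0.38 (0.30 to 0.45), and Airn 1004 and 881 counts and a ratio of 0.37 (0.24 to 0.51). These 4 had the largest ratios among the members called higher. Peg10, Plagl1, Igf2r and Peg3 were higher by 0.25, 0.20, 0.17 and 0.15 on the log2 scale. Ppp1r9a, Ube3a, Meg3, Asb4 and Grb10 were also higher, by 0.24, 0.20, 0.10, 0.09 and 0.04.

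The members lower in replicate 2 were fewer. The count of Tssc4 was 863 in replicate 2 and 1219 in replicate 1, giving a log2 ratio of -0.31 (adjusted p = 2.01e-05, exact binomial test). Slc22a3 had 33 and 70 counts and a log2 ratio of -0.89 (-1.54 to -0.28, adjusted p = 0.0209, exact binomial test). Plg, a liver gene, had 66 and 28 counts. It shares 420 exon bases with the GENCODE M21 model of Slc22a3, on the opposite strand. That model has 4513 exon bases and starts at 12418960, against 3501 bases and 12419972 for the counted row. Whether the shared bases lie within the counted row was not tested. H19, Cdkn1c, Copg2 and Dlk1 had log2 ratios of -0.05, -0.06, -0.06 and -0.06, and each had at least 21458 counts in each library. Igf2, Mest, Nnat and Gnas were not called, with log2 ratios of -0.01, 0.01, -0.04 and -0.02. Neither Ascl2 (-1.10, interval -3.78 to 0.83) nor Rasgrf1 (-1.04, interval -2.61 to 0.25) could be separated from equality at this depth.

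The edgeR exact test was also run with a common dispersion estimated from these same 2 libraries taken as replicates. The difference between them is thereby already counted as spread, so few calls follow from the construction. By that test (edgeR exact test, common dispersion, Benjamini-Hochberg), 0 of 49 members were higher and 0 lower at an adjusted p under 0.05, against 0.417% and 0.334% of all tested genes. At an unadjusted p under 0.05 there were 5 of 49 members, against 5.24% of all tested genes. These were Zim1, Slc22a3, Rian, Zdbf2 and Airn, with edgeR exact test p of 0.0104, 0.0120, 0.0160, 0.0244 and 0.0352.

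Gene length moved with the ratio between the libraries. Over all tested genes the median log2 ratio was -0.08 in the length decile of 720 to 1328 bases and 0.09 in the longest decile. Of the 13 members called higher, 9 were in the 2 longest deciles, which hold 16 of the 49 members. After the median of its own decile was subtracted, Rian stood at 0.30, Zdbf2 at 0.29, Zim1 at 0.46 and Airn at 0.41, while Meg3 stood at 0.01 and Grb10 at -0.05. Of the members called lower, Tssc4 stood at -0.24 and Slc22a3 at -0.85. H19 and Cdkn1c lay within 0.01 of the median of their decile. Markers of other tissues also moved: of 9 hepatoblast markers tested, 8 were higher in replicate 2 and 0 lower, and of 9 neuronal markers, 7 were higher and 0 lower. Of 6 tested markers of mesonephros, gonad and adrenal, 5 were lower in replicate 2. Among 36 further imprinted genes tested, 6 were higher and 0 lower, against 8.85% and 8.65% of all tested genes. The part of these tissues in the ratios of the imprinted genes was not tested.

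**Figure D4:**
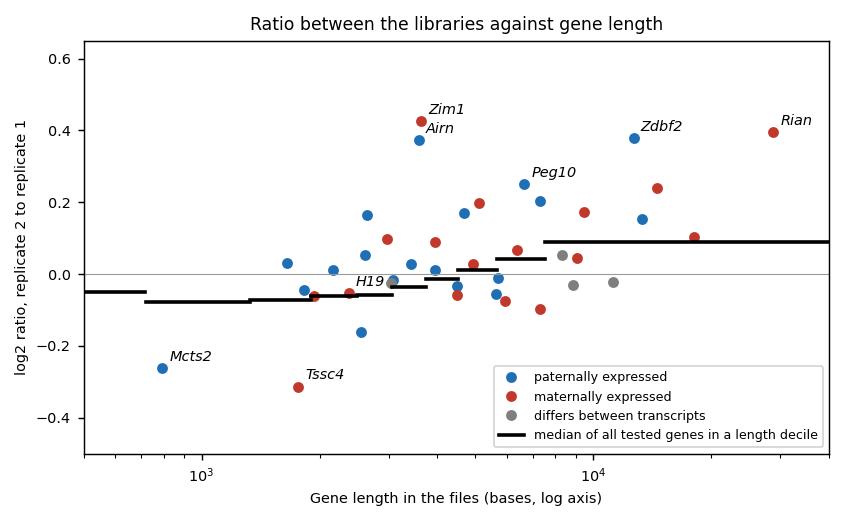
Log2 ratio of replicate 2 to replicate 1 against gene length in bases (log axis) for the 40 imprinted genes with at least 200 counts. Black bars give the median of all tested genes in each length decile, which runs from -0.08 to 0.09. Rian and Zdbf2 are long and lie above the bar of their decile, while Zim1 and Airn are of middle length and lie farther above theirs.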

How the data were processed

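Counts were deposited by the authors per gene symbol and library, as raw numbers, per the file headers. TPM was also deposited by the authors, and gene length (exon bases) stands in the other column used. Per the submitters' processing notes, STAR 2.4.0a, SAMtools 1.3 and featureCounts were used and the build was named mm9. Deposited positions matched GENCODE M21 of GRCm38 for 77.4% of shared symbols (identical to a gene or transcript), and they are printed as GRCm38. Length equalled the GENCODE exon bases of the gene for 21 of 49 members, while start and end often describe 1 transcript: for 3 members (Dlk1, Meg3 and Rian) the span is shorter than the length. No strand setting was given in the sources used here.

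The 51 members, their alleles, the other gene lists and the rule for naming genes were chosen with earlier results of these data known. All members could be named, with the 4 highest of 3 related lists, the 2 highest of each marker list, markers at 0 counts, and genes that share bases with a member. Protein-coding symbols came from GENCODE and RefSeq. Ratios used counts plus 0.5 with TMM factors from edgeR 4.0.16, where both libraries together held 10 counts or more. Alternatives used DESeq2 1.42.0 size factors, library totals, other count minimums, the edgeR exact test, other TPM scales and fewer members. The ratio script was tested on simulated data. Intervals and floors cover counting error only, since reads lacking molecular identifiers are not independent.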

Additional observations from a re-analysis of the deposited data

How the results depend on the processing

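The median level of the imprinted genes was 57.8 TPM when features shorter than 200 bases were left out of the TPM scale, and 62.9 TPM on a scale of protein-coding genes and members alone. Without the 6 members that share 20% or more of their exon bases, the median was 41.2 TPM, the share of counts 2.51%, the maternal share of summed TPM 80.1% and the share from H19 65.5%. Alternatives chosen after seeing the data gave a share of counts of 2.74% and a maternal share of 34.9% without H19, and a median of 64.5 TPM without members imprinted mainly in placenta or brain. Between the libraries, the members past 1.5-fold numbered 1 with a minimum of 100 counts. The edgeR exact test with a common dispersion called 0 members higher, 0 lower and 0 past 1.5-fold, while 5 of 49 had an unadjusted p under 0.05, against 5.24% of all tested genes. Its dispersion comes from the same 2 libraries.

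With either replicate left out, 46 to 47 members reached 1 TPM, 17 to 18 reached 100 TPM, and the median was 51.3 to 52.2 TPM. Ratios could not be recomputed this way, because each side is 1 library. No paired analysis was possible because the series holds a single group. Having 1 library on each side limits every ratio. Few counts limit some further: for Ascl2, with 3 counts in replicate 2 and 8 in replicate 1, the log2 interval ran from -3.78 to 0.83.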
